A study of Mus musculus with 12 samples.

Results

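The genes followed here were 36 listed genes of ribosome assembly and nucleotide supply. Most encode proteins that transcribe, modify and fold ribosomal RNA in the nucleolus, or enzymes that make purines, pyrimidines and polyamines. The list also holds Ipo4, an importin, and Tbrg4, which binds RNA in mitochondria. Of these 36 genes, 35 were measured, out of 19938 genes on the arrays, and Impdh2, which encodes an enzyme on the way to GMP, had no probeset of its own in the annotation and was not analysed here. The list was put together by function and not from a threshold on these values, but with earlier results of these data known. Each of the 35 genes is accounted for below, and all lay above the level filter used as an alternative. Fbl, Ddx18, Wdr12 and Odc1 had more than 1 probeset, and the brightest probeset stood for the gene.

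Ribosomes are built in the nucleolus, where RNA polymerase I copies the ribosomal DNA into a long precursor. Small nucleolar ribonucleoproteins (snoRNPs) methylate and pseudouridylate this precursor, and large assemblies such as the small subunit processome and the PeBoW complex process and fold it into the 40S and 60S subunits. The work consumes nucleotides and depends on polyamines, and many of the genes are known targets of the transcription factor Myc, which binds the E-box CACGTG together with Max.

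RNA was taken from GFP+ cells sorted from the mammary epithelium of female mice aged 10 to 14 weeks, on 12 Affymetrix arrays with 3 arrays in each of 4 groups. The groups were Wnt4-deleted CD24 low cells (arrays 3, 11 and 15), WT CD24 low cells (arrays 1, 9 and 13), Wnt4-deleted CD24 high cells (arrays 4, 12 and 16) and WT CD24 high cells (arrays 2, 10 and 14), numbered as in the sample titles. Wnt4-deleted mice were MMTV::Cre+.Wnt4fl/fl.mT/mG and WT mice were MMTV::Cre+.Wnt4wt/wt.mT/mG, so the WT cells carried Cre and the mT/mG reporter too. Cre was driven by the MMTV promoter, which is active in mammary epithelium, and the labels speak of glands in one place and of grafts in another. CD24 high cells are described as luminal and CD24 low cells as myoepithelial, the contractile outer layer of the duct. All values are RMA log2 values, so a difference of 1 is a 2-fold change. The title numbers fall into 3 sets, arrays 1 to 4, 9 to 12 and 13 to 16, each with 1 array of every group. Independent experiments, 3 in number, are mentioned for the series, and whether each set is one of them is not given.

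Wnt4, a ligand of the Wnt family, read 6.11, 6.46 and 6.78 on the Wnt4-deleted CD24 high arrays, against 7.42, 7.92 and 7.62 on the WT CD24 high arrays, a difference of -1.20 (SE 0.19, limma, adjusted p = 0.416, unadjusted p = 6.2e-05). In CD24 low cells it averaged 6.38 in Wnt4-deleted and 6.53 in WT cells. Whether its probes lie in the deleted part of the gene was not looked up. All 10 myoepithelial markers were lower and all 9 luminal markers higher in CD24 high than in CD24 low cells in both genotypes, and all passed an adjusted p of 0.05 except 1 luminal marker in WT cells. The 3 CD24 low arrays of a group were not alike in the markers of other cells. The mean of 8 endothelial markers was 6.50 on array 3 against 9.47 and 9.23 on arrays 11 and 15 (Wnt4-deleted), and 6.63 on array 1 against 8.24 and 9.04 on arrays 9 and 13 (WT). The mean of 10 skeletal muscle markers was 8.08 on array 3 and 7.05 on array 1, and at most 5.47 on the other 10 arrays. In bulk RNA, fewer cells of a type and less RNA per cell cannot be told apart.

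Promoter sequence was at hand for 29 of the 35 members, as windows of 300 bases (250 before the transcription start and 50 from it on) from RefSeq on GRCm38.p6. The E-box CACGTG, a palindrome that reads the same on both strands, lay in a window of 7 members (24.1%), namely Nop2, Pes1, Wdr43, Utp20, Mybbp1a, Ipo4 and Paics. The share was 9.5% among the 15614 array genes with a window and 7.2% over all 32851 windows. A match is a description of these letters and not a measured binding site. The windows of Nop2, Ipo4 and Wdr43 are shown because their expression is followed array by array below. The capitals mark the E-box, and its first base lies at -60, +15 and +18 from the start in Nop2, Ipo4 and Wdr43. The Nop2 window is chr6:125131633-125131932 on the plus strand, the Ipo4 window is chr14:55635635-55635934 on the minus strand, and the Wdr43 window is chr17:71615965-71616264 on the plus strand, each written 5′ to 3′ along the gene.
Nop2: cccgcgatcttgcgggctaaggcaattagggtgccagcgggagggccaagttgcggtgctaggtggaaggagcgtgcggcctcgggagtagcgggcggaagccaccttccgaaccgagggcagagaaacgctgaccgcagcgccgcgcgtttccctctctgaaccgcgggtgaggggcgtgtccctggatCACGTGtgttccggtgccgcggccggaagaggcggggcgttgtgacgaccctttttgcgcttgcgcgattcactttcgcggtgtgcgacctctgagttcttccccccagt
Ipo4: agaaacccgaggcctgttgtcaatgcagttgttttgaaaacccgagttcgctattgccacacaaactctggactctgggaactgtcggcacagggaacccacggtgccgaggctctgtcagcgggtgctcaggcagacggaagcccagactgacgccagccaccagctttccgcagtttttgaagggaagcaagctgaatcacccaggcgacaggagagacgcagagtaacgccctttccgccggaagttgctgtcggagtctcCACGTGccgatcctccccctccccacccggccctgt
Wdr43: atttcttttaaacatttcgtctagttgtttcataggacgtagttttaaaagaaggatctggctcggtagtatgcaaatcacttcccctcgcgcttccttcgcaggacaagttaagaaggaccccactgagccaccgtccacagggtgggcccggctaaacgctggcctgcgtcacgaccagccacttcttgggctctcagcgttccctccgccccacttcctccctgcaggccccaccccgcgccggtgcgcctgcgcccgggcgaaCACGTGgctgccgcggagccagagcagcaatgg

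In Wnt4-deleted cells, 3 members were lower in CD24 high than in CD24 low cells and none was higher past the threshold (35 tested, limma, adjusted p under 0.05). The same 3 were lower in WT cells. The 2 comparisons share no array but take their error from 1 fit over all 12 arrays, and with only the compared groups in the fit Nop58 alone passed in Wnt4-deleted cells (11.2% of all genes). The 3 were Nop58, a core protein of box C/D snoRNPs, Odc1, which makes putrescine in the first step of polyamine synthesis, and Gnl3 (nucleostemin), a nucleolar GTPase. Among all genes tested, 8.22% were lower and 8.23% higher in Wnt4-deleted cells, and 8.21% lower and 7.93% higher in WT cells, so 3 of 35 members was close to the share over all genes for the lower calls.  Their levels in the 4 groups are plotted with those of Cad, Ctps and Rrp12.

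**Figure D1:**
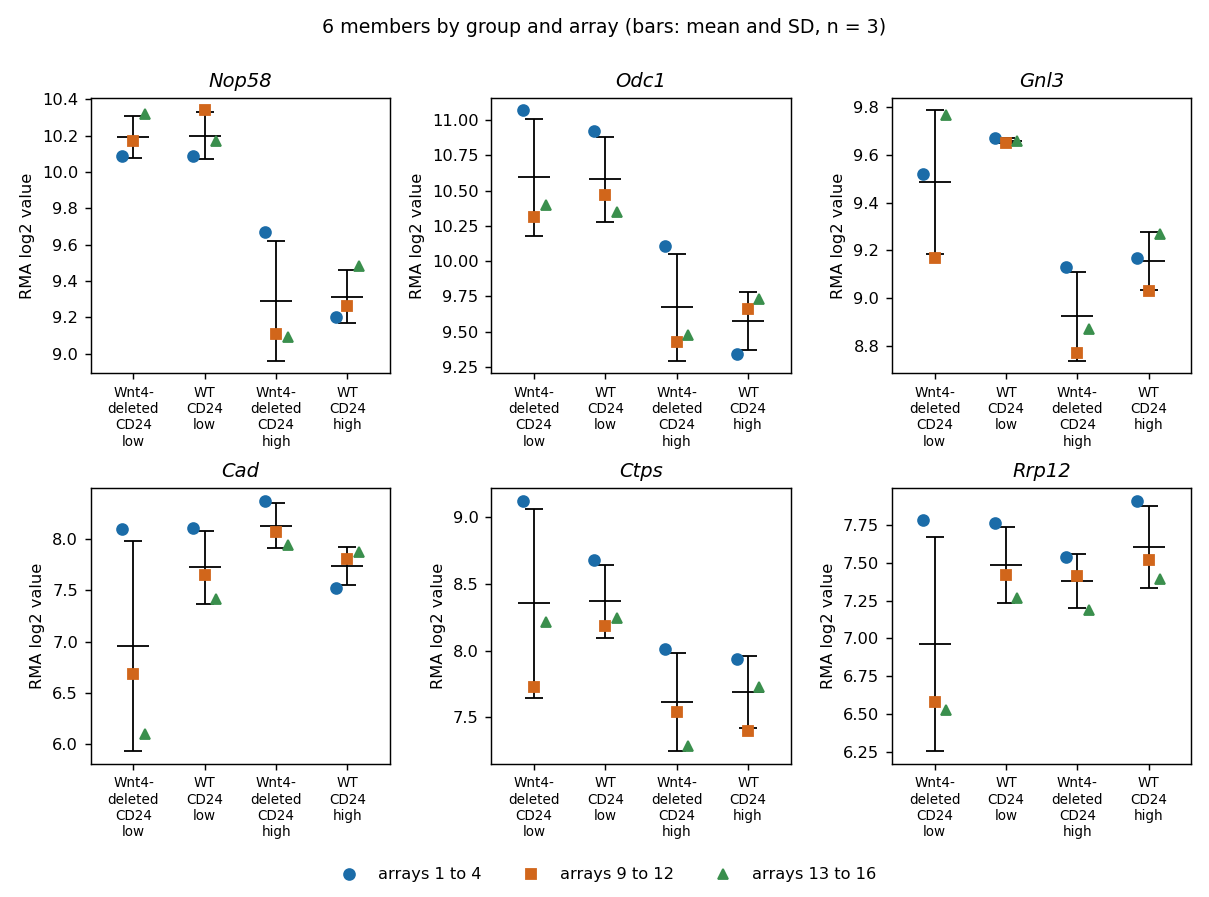
RMA log2 values (vertical axis) of 6 members in the 4 groups, with symbols for the 3 sets of title numbers and bars for mean and SD (n = 3 arrays). Nop58 lies between 9.09 and 9.67 on all 6 CD24 high arrays, below the 6 CD24 low arrays at 10.09 to 10.34, while Cad spreads from 6.10 to 8.09 within the Wnt4-deleted CD24 low group.

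Nop58 read 9.67, 9.11 and 9.09 on the Wnt4-deleted CD24 high arrays 4, 12 and 16, against 10.09, 10.17 and 10.32 on the CD24 low arrays 3, 11 and 15. In WT cells it read 9.20, 9.26 and 9.48 on the CD24 high arrays 2, 10 and 14, against 10.09, 10.34 and 10.17 on arrays 1, 9 and 13. Every CD24 high array lay below every CD24 low array. The difference was -0.90 (SE 0.16, adjusted p = 0.00279) in Wnt4-deleted cells and -0.89 (SE 0.16, adjusted p = 0.00314) in WT cells, a 1.87-fold and a 1.85-fold lower level. It passed the threshold under all 15 alternatives in each genotype.

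Odc1 read 10.11, 9.43 and 9.48 on the Wnt4-deleted CD24 high arrays, against 11.07, 10.31 and 10.40 on the CD24 low arrays. In WT cells it read 9.34, 9.66 and 9.73 in CD24 high cells, against 10.92, 10.47 and 10.35 in CD24 low cells. The groups did not overlap in either genotype, and arrays 3, 1 and 4 stood highest in their groups. The difference was -0.92 (SE 0.25, adjusted p = 0.0265) in Wnt4-deleted cells and -1.0 (SE 0.25, adjusted p = 0.0173) in WT cells. A second, dimmer probeset for Odc1 gave a difference of -1.61 in WT cells. In Wnt4-deleted cells that probeset averaged 8.62 in CD24 high and 9.91 in CD24 low cells. The call was lost in WT cells without array 1 (-0.83) or array 2 (-0.89), and in Wnt4-deleted cells without array 3 (-0.68), array 12 (-0.80) or array 16 (-0.82), or with only the compared groups in the fit.

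Gnl3 read 9.13, 8.77 and 8.87 in Wnt4-deleted CD24 high cells, against 9.52, 9.17 and 9.77 in CD24 low cells, and 9.17, 9.03 and 9.27 in WT CD24 high cells, against 9.67, 9.65 and 9.66 in CD24 low cells. Here too the groups lay apart, with the narrowest spread in WT CD24 low cells (SD 0.01). The difference was -0.56 (SE 0.16, adjusted p = 0.0295) in Wnt4-deleted cells and -0.51 (SE 0.16, adjusted p = 0.0485) in WT cells. The direction was the same under all 15 alternatives in each genotype, yet the WT call was lost when any 1 of the 6 WT arrays was left out and in 3 other alternatives, and the Wnt4-deleted call without array 3, 12, 15 or 16, when the arrays were centred on their medians, and in 3 further alternatives.

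**Figure D2:**
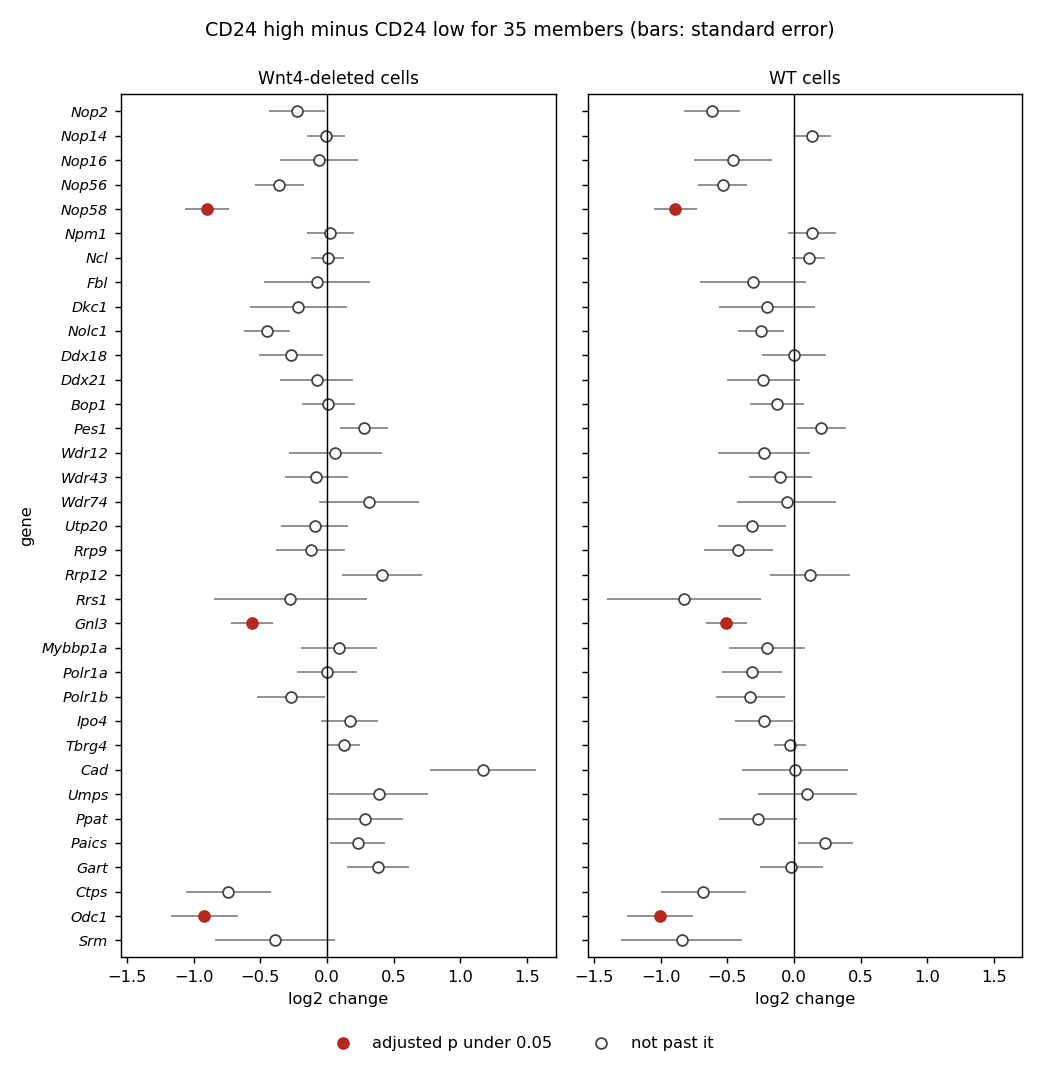
CD24 high minus CD24 low (horizontal axis, log2 change) for the 35 measured members (vertical axis) in Wnt4-deleted and in WT cells, with standard errors as bars and filled red points for an adjusted p under 0.05. Nop58, Odc1 and Gnl3 are filled in both panels, and Cad stands furthest to the right in Wnt4-deleted cells at 1.17 (adjusted p = 0.0718).

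The partners of Nop58 did not all behave like it. Nop56, which pairs with Nop58 in box C/D snoRNPs, differed by -0.36 (SE 0.19) in Wnt4-deleted and by -0.53 (SE 0.19, adjusted p = 0.0782) in WT cells. Fbl (fibrillarin), the methyltransferase of the same particle, differed by -0.08 (SE 0.40) in Wnt4-deleted and -0.31 (SE 0.40) in WT cells. Rrp9, a protein of the U3 snoRNP, differed by -0.12 and -0.42, and Dkc1, the pseudouridine synthase of H/ACA particles, by -0.22 and -0.20, in Wnt4-deleted and WT cells. Nolc1, a chaperone of snoRNPs, differed by -0.45 (SE 0.17) and -0.25 (SE 0.17). None of these passed the threshold.

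Across the whole list the median difference was -0.06 in Wnt4-deleted cells (20 of 35 negative, median over all genes 0.01) and -0.23 in WT cells (27 of 35 negative, median over all genes 0.02). Of all genes, 51.1% had a positive difference in Wnt4-deleted cells and 53.7% in WT cells. The CD24 high and CD24 low arrays did not overlap for 3 members in Wnt4-deleted cells, all lower in CD24 high cells, and for 13 in WT cells, again all lower. Over all genes these shares were 14.2% lower and 15.1% higher in Wnt4-deleted cells, and 15.7% lower and 17.1% higher in WT cells. The 13 were Nop2, Nop56, Nop58, Nolc1, Utp20, Gnl3, Mybbp1a, Polr1a, Polr1b, Ipo4, Ctps, Odc1 and Srm. The Wnt4-deleted median took the other sign, at 0.01, when arrays were centred on their medians, and stood at 0.19 without array 3 and at 0.09 without array 12. By set, CD24 high minus CD24 low had a median of -0.17, -0.02 and -0.03 in Wnt4-deleted cells and of -0.51, -0.21 and -0.04 in WT cells, for arrays 1 to 4, 9 to 12 and 13 to 16. The WT median was furthest from 0 between arrays 2 and 1.

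With the sets of title numbers as a fixed block, more members passed, and so did more genes. In Wnt4-deleted cells 6 members passed (18.8% of all genes in either direction), the added ones being Ctps at -0.74, Nolc1 at -0.45 and Cad at 1.17 (adjusted p = 0.0394). In WT cells 5 passed (18.2% of all genes), the added ones being Ctps, which makes CTP, at -0.68 (adjusted p = 0.0368) and Nop2, an rRNA methyltransferase, at -0.61 (adjusted p = 0.0396). With 1 array left out at a time, 1 to 4 members passed in Wnt4-deleted cells, beside 10.8% to 18.2% of all genes, and 1 to 2 in WT cells, beside 11.4% to 15% of all genes. Without array 3, Cad at 1.73, Rrp12 at 0.82 and Gart at 0.67 passed as higher in Wnt4-deleted CD24 high cells.

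In WT cells 8 members had a positive difference. Paics, a purine synthesis enzyme, had the highest difference of the list there, 0.24 (SE 0.20), and 0.23 in Wnt4-deleted cells. Pes1 of the PeBoW complex differed by 0.28 in Wnt4-deleted and 0.21 in WT cells, whereas its partners Bop1 and Wdr12 differed by 0.01 and 0.06 in Wnt4-deleted and by -0.13 and -0.23 in WT cells. The abundant nucleolar proteins Npm1 and Ncl differed by 0.02 and 0.00 in Wnt4-deleted and by 0.13 and 0.11 in WT cells.

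The remaining members did not pass the threshold either. Polr1a, the largest subunit of RNA polymerase I, differed by 0.00 (SE 0.22) in Wnt4-deleted and -0.32 (SE 0.22) in WT cells, and Mybbp1a, a nucleolar Myb-binding protein, by 0.09 and -0.20. Of the 40S factors, Utp20 differed by -0.09 and -0.32, Wdr43 by -0.08 and -0.10 and Nop14 by -0.01 and 0.14. Of the 60S factors, Nop16 differed by -0.06 and -0.46, Rrs1 by -0.28 and -0.82 (SE 0.58 in both) and Wdr74 by 0.31 and -0.06. The helicases Ddx21 and Ddx18 differed by -0.08 and -0.27 in Wnt4-deleted and by -0.23 and 0.00 in WT cells. Among the enzymes, Umps, which makes UMP, differed by 0.39 and 0.10, Gart, of purine synthesis, by 0.38 and -0.02, and Srm by -0.39 and -0.84 (SE 0.45 in both), in Wnt4-deleted and WT cells.

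Wnt4 deletion was the next question, and no member passed the threshold in either fraction. In CD24 low cells 0 of 35 passed, with 1 of 19938 genes called (0.00502%), and in CD24 high cells 0 of 35, again with 1 gene (0.00502%). At an unadjusted p under 0.05 there were 3 members in CD24 low cells (3.06% of all genes) and 1 in CD24 high cells (1.99% of all genes). In CD24 low cells 29 of 35 differences were negative, with a median of -0.27 (all genes -0.02) and a range of -0.76 for Cad to 0.21 for Npm1 and Ddx18. In CD24 high cells 25 of 35 were negative, with a median of -0.10 (all genes -0.03) and a range of -0.39 for Nolc1 to 0.40 for Cad. Over all genes 45.4% of differences were positive in CD24 low cells and 43.4% in CD24 high cells. The members varied together from array to array, so these counts are not counts of independent genes. The groups did not overlap for 1 member lower and 1 higher in Wnt4-deleted CD24 low cells (4.12% and 2.65% of all genes), and for 0 lower and 1 higher in CD24 high cells (4.97% and 2.04% of all genes). These were Tbrg4 (lower) and Npm1 (higher) in CD24 low cells and Cad (higher) in CD24 high cells.

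The 3 members with the smallest p in CD24 low cells were Tbrg4, Ipo4 and Nop2. Tbrg4 read 9.15, 8.90 and 8.89 on the Wnt4-deleted arrays 3, 11 and 15, against 9.34, 9.34 and 9.17 on the WT arrays 1, 9 and 13, and is the member whose Wnt4-deleted arrays all lay below. Its difference was -0.30 (SE 0.12, unadjusted p = 0.0271, adjusted p = 1.0). Ipo4, an importin with an E-box in its promoter window, read 8.47, 7.77 and 7.45 in Wnt4-deleted cells, against 8.55, 8.31 and 8.36 in WT cells. Its difference was -0.51 (SE 0.21, unadjusted p = 0.0361, adjusted p = 1.0). Nop2 read 7.97, 7.58 and 7.11 in Wnt4-deleted cells, against 8.19, 8.14 and 7.82 in WT cells, and differed by -0.49 (SE 0.21, unadjusted p = 0.0385, adjusted p = 1.0). In both Ipo4 and Nop2, array 3 overlapped the WT arrays and arrays 11 and 15 lay below them.

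In CD24 high cells Nolc1 read 8.55, 7.89 and 8.18 on the Wnt4-deleted arrays 4, 12 and 16, against 8.67, 8.49 and 8.62 on the WT arrays 2, 10 and 14. The groups overlapped, with array 4 among the WT values, and the difference was -0.39 (SE 0.17, unadjusted p = 0.0432, adjusted p = 1.0). Gnl3 differed by -0.23 (SE 0.16) from the values given above. Polr1b, the second largest subunit of RNA polymerase I, read 6.94, 6.20 and 6.39 in Wnt4-deleted cells, against 6.77, 6.72 and 7.08 in WT cells. It differed by -0.35 (SE 0.26), and array 4 again lay within the WT range.

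**Figure D3:**
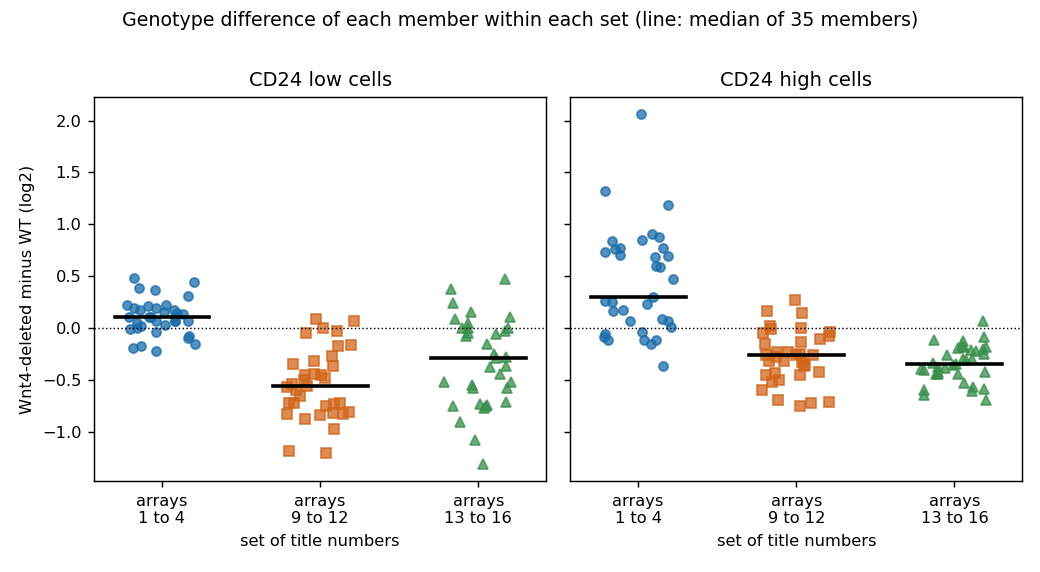
Wnt4-deleted minus WT (vertical axis, log2) for each of the 35 members within each set of title numbers (horizontal axis), in CD24 low and CD24 high cells, with a line at the median. In arrays 1 to 4 the medians are 0.11 and 0.30, above 0, and in the other 2 sets they lie between -0.55 and -0.26.

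The genotype difference went opposite ways in the sets. In CD24 low cells the median of array 3 minus array 1 was 0.11 with 27 of 35 members positive, that of array 11 minus array 9 was -0.55 with 3 positive, and that of array 15 minus array 13 was -0.30 with 8 positive. In CD24 high cells the median was 0.30 with 27 positive in arrays 4 and 2, -0.26 with 4 positive in arrays 12 and 10, and -0.35 with 1 positive in arrays 16 and 14. The median over all genes lay between -0.08 and 0.00 in each of these 6 pairs. Leaving out array 3 gave a CD24 low median of -0.50 and leaving out array 11 gave -0.08, while the CD24 high median was 0.06 without array 12 and -0.30 with arrays 9 to 16 alone. Rrs1, an assembly factor of the 60S subunit, had the widest pair difference, 2.06 between arrays 4 and 2, where array 2 read 5.69 against 7.56 and 7.99 on the other WT CD24 high arrays. In CD24 low cells the endothelial marker means were 6.50 against 6.63, 9.47 against 8.24 and 9.23 against 9.04 (Wnt4-deleted against WT). Their differences were opposite in sign to the medians of the members in CD24 low cells. In CD24 high cells the endothelial means were 5.08 against 5.16, 6.38 against 6.15 and 5.29 against 5.34. There the sign was opposite in arrays 1 to 4 and 9 to 12 and the same in arrays 13 to 16. The fibroblast marker means in CD24 low cells were 5.82 against 5.75, 8.26 against 8.75 and 6.71 against 5.98, opposite in sign only in arrays 13 to 16. Skeletal muscle marker means in CD24 low cells were 8.08 against 7.05, 5.47 against 5.23 and 5.06 against 5.15, opposite only in arrays 9 to 12. The part of these markers in the result was not tested.

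The difference of the genotype effects (CD24 low minus CD24 high) passed the threshold for 0 of 35 members and 0 of 19938 genes (0%), and no member and 273 genes had an unadjusted p under 0.05. The median over the members was -0.18 and 25 were negative (50.6% of all genes were positive). Cad, which catalyses the first steps of pyrimidine synthesis, had the largest difference at -1.16 (SE 0.56, unadjusted p = 0.0638, adjusted p = 1.0). It read 8.09, 6.68 and 6.10 in Wnt4-deleted CD24 low cells, against 8.10, 7.65 and 7.41 in WT CD24 low cells. In CD24 high cells it read 8.37, 8.07 and 7.94 in Wnt4-deleted cells, against 7.52, 7.80 and 7.87 in WT cells, so the Wnt4-deleted arrays all lay above. Ppat, the first committed enzyme of purine synthesis, read 7.78, 6.57 and 6.93 in Wnt4-deleted CD24 low cells, against 7.47, 7.29 and 7.68 in WT cells, and 7.68, 7.15 and 7.29 in Wnt4-deleted CD24 high cells, against 6.80, 7.29 and 7.55 in WT cells. Its difference of effects was -0.55 (SE 0.41), and that of Nop2, from the CD24 low values above and 7.63, 7.13 and 7.22 against 7.40, 7.38 and 7.52 in CD24 high cells, was -0.39 (SE 0.30).

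**Figure D4:**
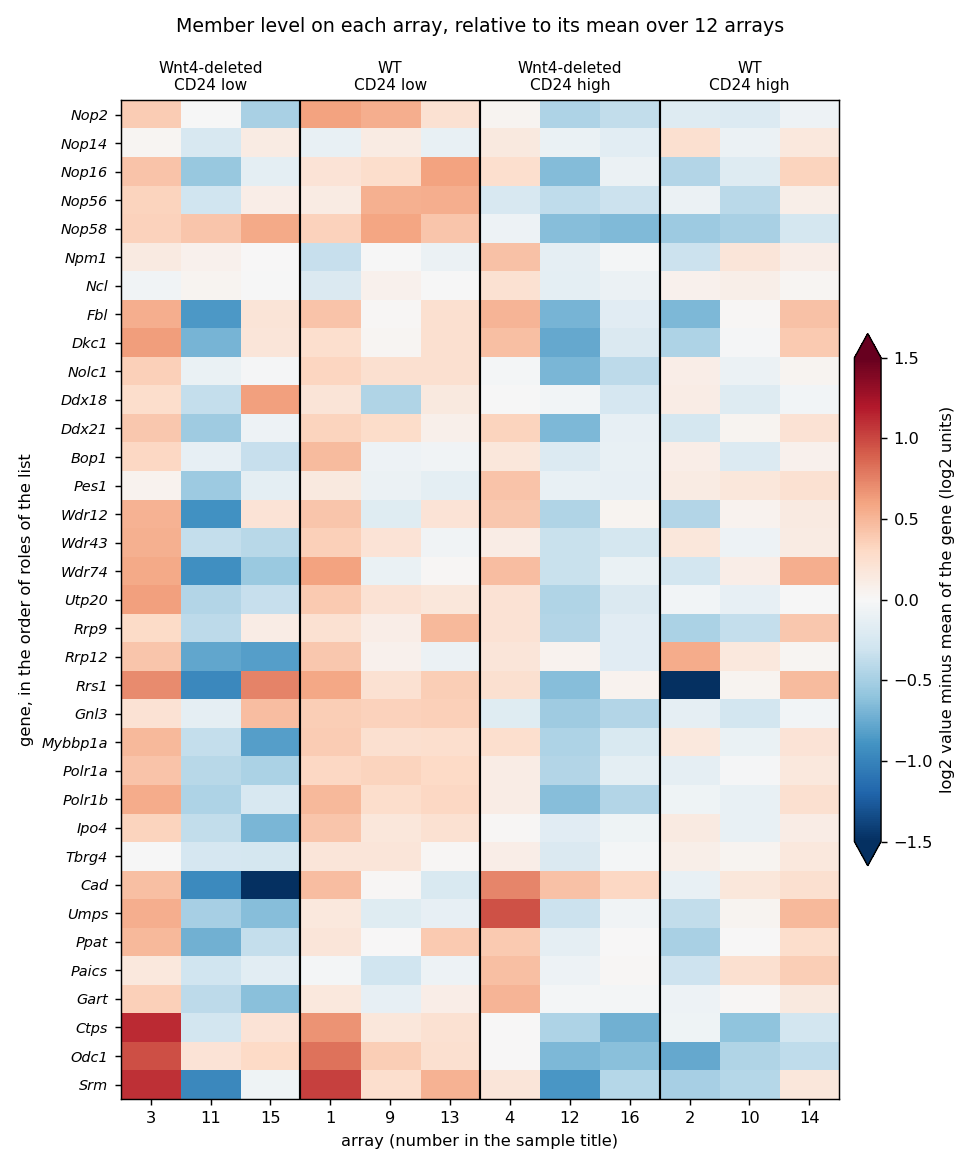
Level of each of the 35 members (rows) on each of the 12 arrays (columns, in 4 groups of 3), as the log2 value minus the mean of that gene, red for higher and blue for lower. The columns of arrays 3 and 4 are mostly red and those of arrays 11 and 12 mostly blue. Rrs1 on array 2 and Cad on array 15 reach the dark blue end of the colour scale.

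Within each group the members varied together from array to array. Array 4 was the highest of the 3 Wnt4-deleted CD24 high arrays for 35 of 35 members (36.2% of all genes), and array 3 the highest of the Wnt4-deleted CD24 low arrays for 29 (36.6% of all genes). Array 1 was the highest in its group for 25 members (40.9% of all genes) and array 14 for 25 (30.4%). At the low end were array 12 for 28 members, array 11 for 21, array 2 for 19 and array 9 for 18, against 33.9%, 33.8%, 34.2% and 39.2% of all genes. The median deviation of the members from their group mean was 0.54 on array 3, 0.35 on array 4, -0.32 on array 11 and -0.22 on array 12.

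The mean over the 35 members was 8.79, 7.95 and 8.21 on the Wnt4-deleted CD24 low arrays 3, 11 and 15, and 8.69, 8.49 and 8.53 on the WT CD24 low arrays 1, 9 and 13. In CD24 high cells it was 8.60, 8.0 and 8.17 on the Wnt4-deleted arrays 4, 12 and 16, and 8.16, 8.27 and 8.52 on the WT arrays 2, 10 and 14. Arrays 9 to 12 and 13 to 16 shared the order of WT above Wnt4-deleted in both fractions, and arrays 1 to 4 did not.

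After removing the group means, the median correlation of a member with the mean of the other members over the 12 arrays was r = 0.83, and 30 of 35 members were above 0.5. Over all other genes the median was -0.04 and 22.5% were above 0.5. These points share the arrays and the amplification, and members were compared with a mean of their own list, so the figures are a description. Polr1b (0.98), Srm, which makes spermidine (0.97), and Wdr74, a 60S assembly factor (0.96), followed the list most closely. Ncl (0.13), the helicase Ddx18 (0.32), Nop58 (0.36), the 40S factor Nop14 (0.40) and Npm1 (0.47) followed it least. For Ddx18 this holds for the brightest probeset. Its dimmer probeset read 8.03, 7.41 and 7.70 on arrays 3, 11 and 15, and 8.25, 7.45 and 7.73 on arrays 4, 12 and 16. In these Wnt4-deleted groups that is the order of the members' mean, and no correlation was computed for this probeset. Nop58, with the smallest adjusted p between CD24 fractions in this list, was among the members least tied to the variation between arrays.

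Between the 3 sets of title numbers, 0 of 35 members passed a moderated F test that keeps the group means (limma, 7 of 19938 genes called, 0.0351%), and 8 members (11.9% of all genes) had an unadjusted p under 0.05. Relative to arrays 1 to 4, the members had a median of -0.39 on arrays 9 to 12 (all genes -0.03, 33 of 35 negative) and of -0.22 on arrays 13 to 16 (all genes -0.01, 28 of 35 negative). Arrays 9 to 12 were the lowest set for 29 members, arrays 13 to 16 for 5 and arrays 1 to 4 for 1. The count of calls depended on array 2. Without it 7 members passed (Odc1, Wdr74, Srm, Fbl, Umps, Wdr12 and Dkc1, adjusted p 0.0207 to 0.0492), with 5.65% of all genes called.

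The 4 members with the smallest p between sets were Ctps, Rrp12, Bop1 and Wdr43. Ctps read 9.12, 8.68, 8.01 and 7.94 on arrays 3, 1, 4 and 2, against 7.73, 8.18, 7.54 and 7.40 on arrays 11, 9, 12 and 10 and 8.21, 8.24, 7.29 and 7.73 on arrays 15, 13, 16 and 14. In every group the array of the first set was the highest (9 to 12 minus 1 to 4, -0.73; 13 to 16 minus 1 to 4, -0.57; adjusted p = 0.211). Rrp12, which takes part in 40S maturation in yeast, read 7.78, 7.76, 7.54 and 7.91 on arrays 3, 1, 4 and 2, against 6.58, 7.42, 7.41 and 7.52 and against 6.53, 7.27, 7.19 and 7.39 in the other sets in the same group order. It too was highest on arrays 1 to 4 in each group, with set differences of -0.52 and -0.65 (adjusted p = 0.246).

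Bop1, which with Pes1 and Wdr12 forms the PeBoW complex, read 7.18, 7.35, 7.05 and 6.98 on arrays 3, 1, 4 and 2, against 6.75, 6.80, 6.67 and 6.67 and against 6.53, 6.82, 6.76 and 6.94 in the other sets. Its set differences were -0.42 and -0.38 (adjusted p = 0.271), again with arrays 1 to 4 highest in every group. Wdr43, a small subunit processome protein with an E-box in its window, read 10.12, 9.95, 9.70 and 9.76 on arrays 3, 1, 4 and 2, against 9.23, 9.80, 9.25 and 9.51 and against 9.17, 9.54, 9.33 and 9.71, with differences of -0.44 and -0.44 (adjusted p = 0.337).

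**Figure D5:**
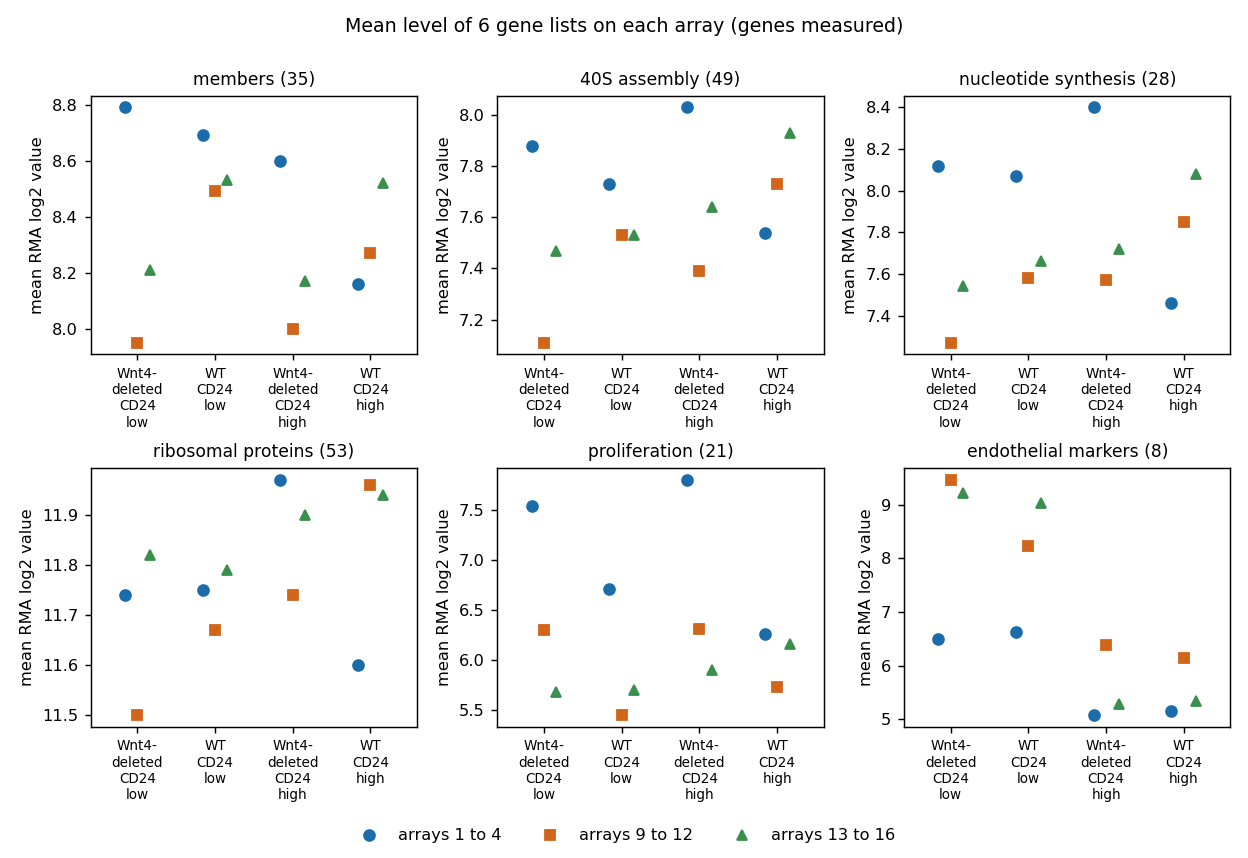
RMA log2 value averaged over the genes of a list (vertical axis), for 6 lists and 12 arrays, by group (horizontal axis) and with symbols for the 3 sets of title numbers. The members, the 40S assembly list and the nucleotide synthesis list share the same order of arrays within the Wnt4-deleted groups, while endothelial markers are lowest on arrays 3 and 1 within CD24 low cells.

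Other genes of the same pathways varied over the arrays much as the members did. The median correlation with the members' mean, after removing the group means, was 0.86 for 49 genes of the small subunit processome and 40S assembly, 0.83 for 28 genes of nucleotide synthesis, 0.81 for 44 genes of 60S assembly, 0.73 for 13 snoRNP genes, 0.65 for 19 genes of RNA polymerase I and its factors, 0.51 for 53 ribosomal proteins and 0.27 for 6 polyamine genes. Lists outside ribosome assembly moved with the members as well on this measure, which leaves out differences between groups. The values were 0.73 for 21 proliferation genes, 0.66 for skeletal muscle and 0.64 for 33 genes of oxidative phosphorylation. Markers of endothelial cells (-0.75), immediate-early genes (-0.64), and adipocyte (-0.62), fibroblast (-0.58) and immune markers (-0.57) ran the other way. The mean of the proliferation list was 7.54 on array 3, 7.80 on array 4 and 6.71 on array 1, against 5.45 to 6.31 on the other 9 arrays. Among CD24 high arrays, oxidative phosphorylation was lowest on array 2, at 9.24. The part of these cells and states in the members' variation was not tested.

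None of these pathway lists had a gene called between genotypes. Between CD24 fractions they had calls both ways, to be read against the shares over all genes given above (8.23% higher and 8.22% lower in Wnt4-deleted cells, 7.93% higher and 8.21% lower in WT cells). Of 13 snoRNP genes, 0 were higher and 1 lower in Wnt4-deleted cells and 1 higher and 2 lower in WT cells, among them Naf1, an H/ACA assembly factor, at -0.74 and -0.55 (Wnt4-deleted and WT) and Snu13, a box C/D core protein, at -0.63 in WT cells. Of 44 genes of 60S assembly, 3 were higher and 0 lower in each genotype, with Las1l, an endonuclease of rRNA processing, at 1.45 and 1.27. Of 49 genes of 40S assembly, 0 were higher and 1 lower in Wnt4-deleted cells (Nol10 at -0.65), and 3 higher and 1 lower in WT cells, with Utp3 at 1.21 and Nol10 at -0.52. Of 19 genes of RNA polymerase I, 1 was higher in each genotype, the termination factor Ttf1 (0.71 and 0.84).

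Nucleotide synthesis had 6 of 28 genes higher and 0 lower in Wnt4-deleted cells, and 5 higher and 1 lower in WT cells, with Uck1, a uridine-cytidine kinase, at 0.89 and 0.75, and Shmt1, of folate metabolism, at 0.89 and 0.75. Of 6 polyamine genes, 1 was lower in each genotype, Azin1, the antizyme inhibitor that keeps ornithine decarboxylase active, at -1.40 and -1.43, in the same direction as Odc1. None of 53 ribosomal protein genes was called in either genotype, with medians of 0.18 and 0.10.

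Myc itself was lower in CD24 high cells. It read 11.43, 11.05 and 11.42 on the Wnt4-deleted CD24 high arrays, against 11.97, 12.03 and 12.10 on the CD24 low arrays, and 11.17, 11.53 and 11.44 on the WT CD24 high arrays, against 12.03, 12.13 and 12.15 on the CD24 low arrays. The fractions did not overlap, and the difference was -0.74 (SE 0.13, adjusted p = 0.00309) in Wnt4-deleted and -0.72 (SE 0.13, adjusted p = 0.00359) in WT cells. Between genotypes Myc differed by -0.07 (SE 0.13) in CD24 low and -0.08 (SE 0.13) in CD24 high cells. A list of 11 genes of its network had a median correlation of 0.01 with the members' mean over the arrays. That list mixes Myc, Mycn and Mycl with Max, Mxd1, Mxi1, Mnt and others, so its median does not measure Myc activity, which was not tested. Nop58, Odc1 and Gnl3 had no CACGTG in their promoter windows. Each window holds 300 bases, sequence outside it was not searched, and binding by Myc was not tested.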

How the data were processed

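RNA of 12 samples (total RNA, Trizol, Ovation Pico WTA V2 and FL-Ovation labelling) was measured on 1 Affymetrix array each. Per the submitters' processing notes the authors used RMA within Affymetrix Expression Console 1.1.2800. The deposited numbers are thus on a log2 scale, and had been background-corrected, quantile-normalised and summarised per probeset. Their range was 1.62 to 13.8 with array medians of 5.64 to 5.82, and no arrays were identical. There is no read depth in array data, and precision is limited by the number of arrays. The series mentions 3 independent experiments. Which arrays belong to which experiment or animal is not given in the labels, so p-values measure only the spread between these samples.

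Of 35556 probesets, 21789 had 1 gene symbol, 1621 had several and 12146 had none in the platform annotation. The brightest probeset stood for each of 19938 genes. Groups were compared with limma 3.58.1 under R 4.3.3 (functions lmFit and eBayes, 1 mean per group over 12 arrays, 8 residual degrees of freedom), two-sided, with Benjamini-Hochberg adjustment over all genes within each comparison and a threshold of 0.05. Sets of title numbers were compared by a moderated F test beside the group means. On simulated data for the CD24 low genotype comparison with 19938 genes, the model recovered 62.7% of genes changed by 1 and 92.3% of those changed by 2. Many genes were changed at once there, with noise drawn independently for each gene, whereas 1 of 19938 genes was called in the data. Smaller changes were not simulated, so these percentages do not give the power for the members.

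Members and gene lists were chosen with earlier results of these data known, so no list was tested as a set. Array values are printed for members called in a genotype comparison or, where fewer than 3 were called, for the 3 with the smallest p, for up to 3 called members in each direction between fractions, and for the 4 with the smallest p between sets. Up to 3 genes per pathway list, by p, are named. Myc and Wnt4 were added for context. Alternatives were leaving out genes below the 40th percentile of mean level, probeset means, other scalings, another prior, fewer groups, the sets as a block, arrays 9 to 16 alone, and each array left out.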

Additional observations from a re-analysis of the deposited data

Results flagged for a closer look

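Cad was singled out because its genotype difference ran opposite ways in the 2 CD24 fractions in every set of title numbers. Wnt4-deleted minus WT was -0.01, -0.97 and -1.31 in CD24 low cells and 0.86, 0.27 and 0.07 in CD24 high cells, for arrays 1 to 4, 9 to 12 and 13 to 16. The mean difference between the fractions was -1.16, and the test of this difference gave an unadjusted p of 0.0638 and an adjusted p of 1.0 (limma). It lay between -1.73 and -0.73 over 20 alternatives. No other of the 35 members had such a pattern. The rule looks only at the signs of differences between single arrays, so values as small as -0.01 and 0.07 count in full. The share of all genes with such a pattern was not computed, so how unusual it is cannot be said.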

How the results depend on the processing

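No difference of a member past the threshold changed direction under any alternative run, and the counts of members called between genotypes and in the difference of effects stayed at 0 under all alternatives run. In Wnt4-deleted cells the count of members that differed between CD24 fractions was 3, and it was 6 with the sets of title numbers as a fixed block (18.8% of all genes) and 1 with only the compared groups in the fit (11.2% of all genes). It ranged from 1 to 4 with 1 array left out, the lowest without array 12 or array 16. In WT cells the count was 3, and it was 5 with the fixed block (18.2% of all genes) and 1 to 2 with 1 array left out, the lowest without array 2. Between sets the count was 0, and 0 to 7 with 1 array left out, the highest without array 2. With the sets as a random block (correlation 0.0501), which leaves the calls to Nop58, Odc1 and Gnl3, the counts were 3 and 3. The causes were not tested. Over the alternatives the adjusted p of Nop58 was 0.00045 to 0.027 in Wnt4-deleted and 0.0028 to 0.017 in WT cells, that of Odc1 0.0027 to 0.10 and 0.0063 to 0.069, and that of Gnl3 0.0077 to 0.12 and 0.023 to 0.16. The signal over background of single probes is not known here, which limits what can be said of members with low values.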
